A study of Mus musculus with 6 samples.

Results

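The G2/M and mitotic spindle genes are 35 listed genes of the program that takes a cell from the end of DNA replication through division. Members were all array probes whose gene symbol in the platform annotation was on that list. By this rule 33 of the 35 genes were found, on 66 of 45281 probes, among 19057 named genes; Ccnb1 and Mki67 matched no probe by symbol. RNA was measured on 1 bead array for each of 6 stable clones. All derive from NIH3T3 cells, embryonic fibroblasts of NIH Swiss mice that grow without limit in culture. The 3 FEAT clones, FEAT-3, FEAT-15 and FEAT-20, carried the plasmid pEF-DEST51-FEAT, in which the elongation factor 1alpha promoter drives human FEAT (also known as METTL13, a methyltransferase of the elongation factor eEF1A). Blasticidin S at 10 µg/ml was applied for 7 days to select them, and colonies with high FEAT protein were kept. The 3 control clones, ΔccdB-1, ΔccdB-2 and ΔccdB-3, carried the pEF-DEST51 vector with its ccdB gene deleted and no FEAT; whether they had the same selection is not stated. Each line is a single clone, so p-values measure the spread between these clones, and their number limits the precision of every value.

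Entry into mitosis is driven by cyclin-dependent kinase CDK1 bound to A- and B-type cyclins. The spindle assembly checkpoint then holds the anaphase-promoting complex (APC/C) inactive until every kinetochore is attached to microtubules. Transcription of these genes peaks late in the cell cycle. In G1 and quiescent cells the DREAM complex holds them down, and in G2 the MuvB complex with B-MYB and FOXM1 turns them on, mostly through a promoter element called the cell cycle genes homology region (CHR), while NF-Y binds CCAAT boxes nearby. In a dividing fibroblast culture their RNA is therefore a common readout of how many cells are cycling. In bulk RNA, a lower share of cells in G2 and mitosis and less RNA in each such cell cannot be told apart.

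That shared promoter layout is shown for 7 members with RefSeq sequence of build GRCm38.p6. Bub3 and Prc1 had the most positive, and Aurka and Racgap1 the most negative, log2 differences among tested members with a promoter in the table (no probe of Racgap1 was above background); Cdk1, Cdc20 and Kif11 were chosen after the motif positions were seen, because both elements lie before the start. Each sequence runs 5′ to 3′ on the strand of the gene, from 120 bases before to 12 bases after the annotated start. Capitals mark the letters TTTGAA or TTCGAA (the CHR) and CCAAT, in either orientation. The windows are chr10:69352901-69353032 (minus strand) for Cdk1, chr4:118437332-118437463 (minus) for Cdc20, chr19:37376262-37376393 (plus) for Kif11 and chr7:131560250-131560381 (plus) for Bub3. Those of the others are chr7:80294331-80294462 (plus) for Prc1, chr2:172370559-172370690 (minus) for Aurka and chr15:99651645-99651776 (minus) for Racgap1.
Cdk1: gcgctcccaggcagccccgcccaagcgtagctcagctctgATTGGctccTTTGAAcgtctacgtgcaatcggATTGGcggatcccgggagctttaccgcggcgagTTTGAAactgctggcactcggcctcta
Cdc20: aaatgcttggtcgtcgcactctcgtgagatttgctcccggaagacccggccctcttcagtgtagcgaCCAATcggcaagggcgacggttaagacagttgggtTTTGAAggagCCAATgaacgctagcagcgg
Kif11: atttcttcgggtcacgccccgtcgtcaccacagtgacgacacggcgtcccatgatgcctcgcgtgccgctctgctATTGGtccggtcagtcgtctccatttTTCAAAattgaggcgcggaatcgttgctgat
Bub3: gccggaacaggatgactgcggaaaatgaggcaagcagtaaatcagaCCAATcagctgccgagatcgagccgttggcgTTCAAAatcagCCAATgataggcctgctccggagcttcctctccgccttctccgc
Prc1: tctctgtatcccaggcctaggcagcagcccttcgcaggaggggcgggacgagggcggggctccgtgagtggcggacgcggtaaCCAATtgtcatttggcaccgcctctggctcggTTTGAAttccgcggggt
Aurka: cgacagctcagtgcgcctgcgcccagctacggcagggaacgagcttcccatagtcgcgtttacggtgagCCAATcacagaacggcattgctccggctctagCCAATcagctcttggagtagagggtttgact
Racgap1: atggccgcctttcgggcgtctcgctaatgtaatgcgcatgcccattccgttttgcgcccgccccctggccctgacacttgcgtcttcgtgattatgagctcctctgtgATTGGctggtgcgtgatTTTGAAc
In this window the promoter of Cdk1 held the CHR letters 2 times and that of Cdc20 1 time, and both held CCAAT 2 times. Aurka had no CHR letters in the window shown and 2 CCAAT boxes; its CHR letters begin 33 bases after the start, outside the printed stretch.

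Over the whole promoter window of the table, 250 bases before to 50 after the start, 28 of the 35 genes matched (all but Ccna2, Cdc25c, Foxm1, Aurkb, Incenp, Kif20a and Tpx2), with 31 promoters, because Bub3, Gtse1 and Prc1 have 2 annotated starts each. The letters TTTGAA or TTCGAA, on either strand, stood in 23 of the 31 (74.2%) and in 19.2% of all 32851 promoters in the table. CCAAT on either strand stood in 27 (87.1%) against 37.4% of all promoters, and at 2 or more places in 54.8% against 11.7%. Both elements together were found in 21 member promoters (67.7%) and in 7.52% of all. TTCGAA reads the same on both strands and was counted 1 time per place, and overlapping matches were each counted.

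The place of the elements was shared by part of the members. With 1 promoter per gene, the most upstream start, 19 of 28 members (67.9%) had CHR letters that begin no more than 60 bases before the start or after it, against 5.90% of all promoters. In 18 of the 28 (64.3%) such a CHR also had a CCAAT box further upstream, an arrangement seen in 2.22% of all promoters. The step from that box to the CHR had a median of 35 bases in the members and 81.5 bases over the 728 promoters with the same arrangement. The nearest box and the smallest step were taken, so promoters with more boxes have shorter steps by construction. CCAAT at 2 or more places was in 54.8% of member promoters against 11.7% of all. The 728 also count every annotated start, so the 2 medians are not a like comparison. In the members the step ranged from 9 bases in Kif23 to 153 in Bub1b, and 12 of the 18 steps lay between 24 and 52. It was 31 bases in Bub3, 32 in Prc1, 33 in Cdk1, and 35 in Cdc20, Cdc25b, Top2a and Ttk, but 17 in Racgap1, 73 in Cenpf and 102 in Cenpa. Mad2l1 and Nusap1 had neither element in the window. A match is a description of letters, not evidence of binding.

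Among related genes, both elements together were in 64.3% of 28 promoters of other spindle and cytokinesis genes and 53.8% of 13 promoters of other G2/M control genes. The share was 33.3% for condensin, cohesin and separase, 25.0% for other kinetochore and centromere genes and 18.8% for G1/S and replication genes. It was 0 of 15 for the list of APC/C subunits and partners and 0 of 14 for the list of CDK inhibitors, pocket proteins and other antiproliferative genes.

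**Figure D1:**
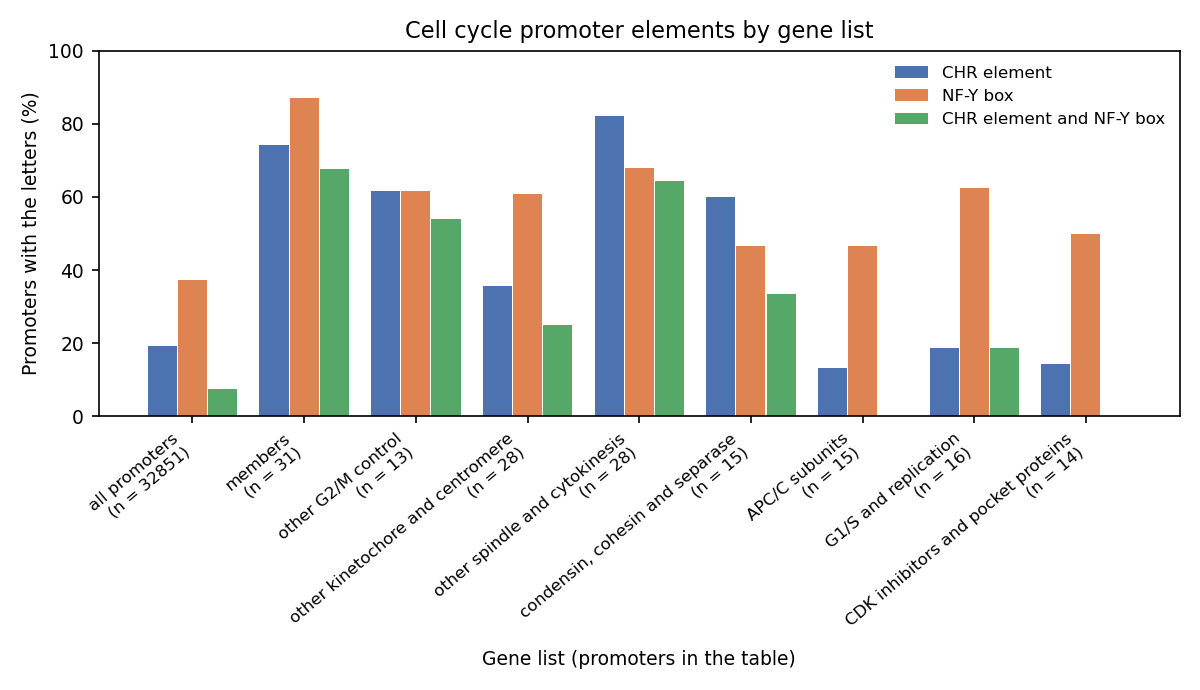
Share of promoters (percent, bars, axis from 0) that hold the CHR letters, the CCAAT letters bound by NF-Y, or both, for all 32851 promoters, the 31 promoters of the members and 7 related gene lists. Both elements together reach 67.7% in the members and 7.52% in all promoters.

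Intensities below are the deposited values, scaled by the submitters to the same mean of 680 on every array, with background still included. An array's background limit, set 3 SDs above the most frequent log2 intensity, with the SD taken from values lower than it, lay between 94.2 and 109 on that scale. Before scaling, mean intensities ran from 616 to 735, and 36.9% to 39.8% of probes lay above the limit. Over tested probes, arrays correlated at 0.988 to 0.993. All 5 probes of Eef1aknmt, the mouse counterpart of FEAT, did not pass the test. The insert is human, so they do not check its level. On 1 of them, above the limit on the 3 control arrays and on no FEAT array, the difference was -0.59 without overlap (unadjusted p = 0.000745, adjusted p = 0.146 with limma). The fibroblast markers Col1a1, Col1a2, Col3a1, Vim, Pdgfrb, Thy1, S100a4 and Fn1 were above the limit on all 6 arrays. Their summed intensity was 39625 to 41623 in control and 42770 to 49601 in FEAT clones; 4 of the 8 had an unadjusted p under 0.05 and 0 were called (limma). The part of this in the members' values was not tested. Of other cell types' markers, 2 of 6 epithelial (Krt14 and Cdh1), 1 of 4 immune (Lyz2), 0 of 5 endothelial and 2 of 5 muscle markers (Acta1 and Des) were above it on every array, and Epcam, Ptprc and Myod1 on none. Krt14 was bright, at 15983 to 28128 over the 6 arrays, where Vim read 21502 to 24763. Cdh1 read 96.5 to 126.

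Of the 33 members on the array, 24 had a probe above the limit on all 6 arrays. Ccna2 exceeded it on FEAT-15 alone, at 99.5, with 78.5 to 95.9 elsewhere. The other 8, Ccnb2, Cks2, Nek2, Bub1, Cenpe, Kif2c, Kif20a and Racgap1, were above it on no array with any probe. Their brightest probes read 64.7 to 78.8 for Ccnb2, the second B-type cyclin, 68.0 to 86.5 for Cenpe, a kinetochore motor, and 66.3 to 81.1 for Kif20a, a kinesin of cytokinesis. Probes under the limit on every array were also present for Bub3, Cdk1, Kif23, Nusap1 and Top2a, among others, and sat beside bright ones of the same gene. So a low reading here belongs to a probe and gives no level of the gene.

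**Figure D2:**
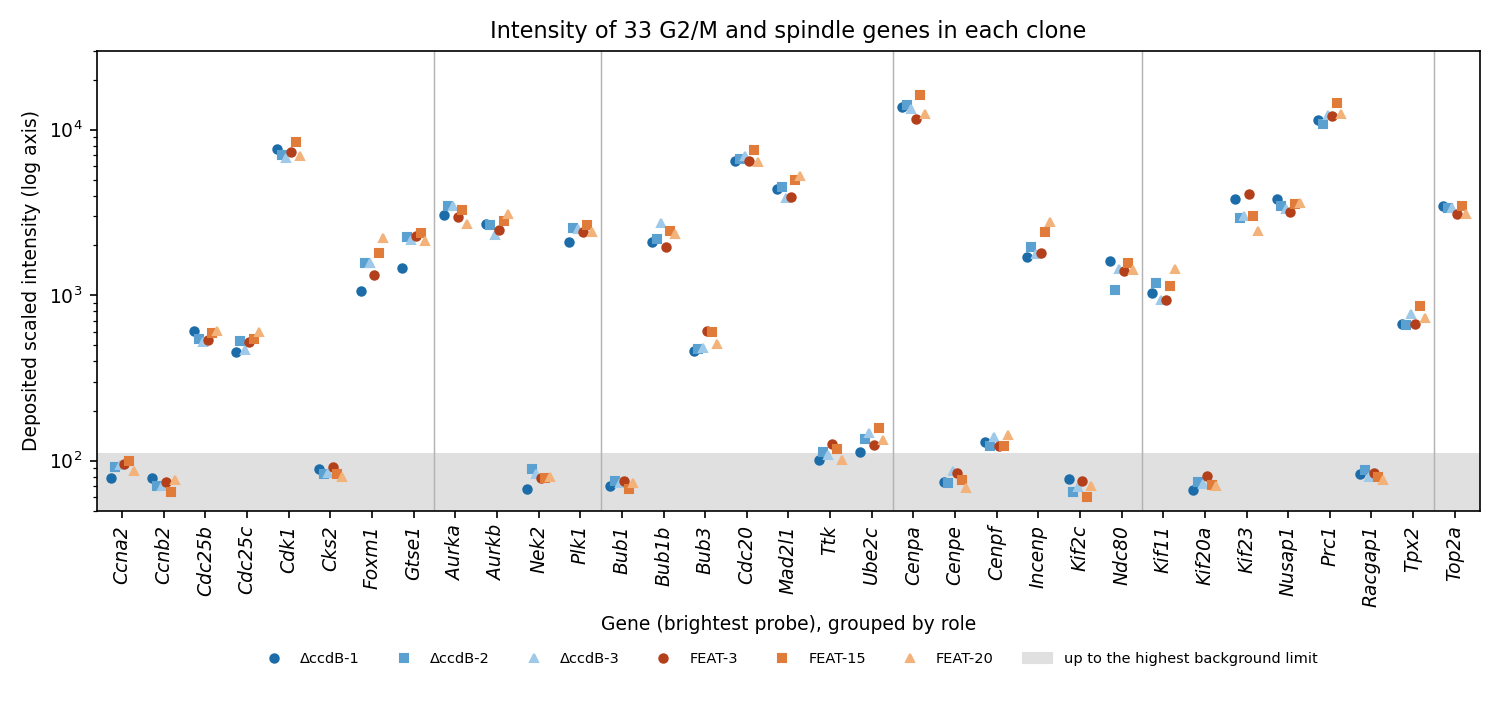
Deposited scaled intensity (log axis) of the brightest probe of each of the 33 genes, grouped by role, with 1 point per clone; blue points are the 3 ΔccdB clones, red to orange points the 3 FEAT clones, and the grey band reaches the highest background limit, 109. Brightness is not comparable between probes; within a gene, blue and orange points lie among each other for most genes.

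FEAT and control clones were compared to ask whether fibroblasts that overexpress FEAT differ in transcription of the mitotic program. None of the 28 members that passed the filter on dim probes was called: 0 rose and 0 fell (limma, adjusted p from 0.593 upward), and 0 had an unadjusted p under 0.05. Over all genes tested, by the brightest probe, 0.225% of 13315 were called at an adjusted p under 0.05 and 10.1% had an unadjusted p under 0.05. Called genes were higher in FEAT clones in 0.135% and lower in 0.0901%. By probe, 2 of 51 member probes tested had an unadjusted p under 0.05, beside 9.08% of all probes tested. The median log2 difference, FEAT minus control, was 0.081 over the 28 members and 0.0071 over all genes. It was positive in 19 members (67.9%), where 51.6% of all genes were positive. For the 24 members above background on all arrays, the median was 0.086, folds ran from 0.890 to 1.24, and every single-gene 95% interval lay within 2-fold. Intervals of 21 of the 24 lay within 1.5-fold; Foxm1, Gtse1 and Incenp reached beyond, up to 1.69-fold. These intervals are the statement the data allow, since a p above the threshold does not show that the groups are alike.

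Without FEAT-15 the median of the members was 0.017, beside 0.012 over all genes. Without ΔccdB-1 it was 0.046, beside 0.0056. It was 0.025, beside 0.0051, with the mean of all tested probes of a gene in place of the brightest.

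**Figure D3:**
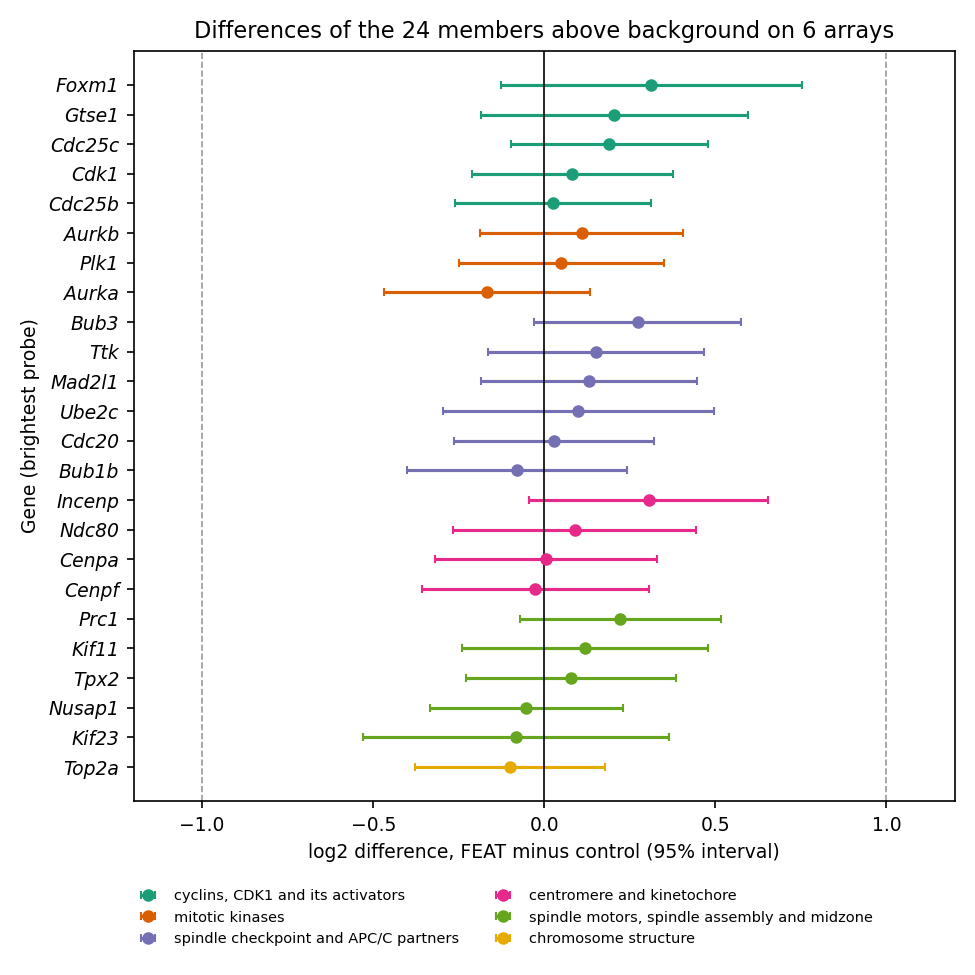
Log2 difference, FEAT minus control, with its 95% interval (limma, 3 clones against 3) for the 24 members above background on all 6 arrays, coloured by role; dashed lines mark 2-fold. All 24 intervals include 0 and lie between the dashed lines.

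The group of cyclins, CDK1, its activators and related genes had 7 tested members, with a median log2 difference of 0.14. They were Ccna2, Cdk1, Cks2, Cdc25b, Cdc25c, Foxm1 and Gtse1. That median is the value of Ccna2, the only cyclin tested, which exceeded the limit on FEAT-15 alone. Cks2 was above the limit on no array. The group median thus rests on a reading near background and gives no level of cyclin RNA. Cdk1, the kinase itself, read 7625, 7062 and 6749 in ΔccdB-1, ΔccdB-2 and ΔccdB-3. It read 7359, 8442 and 6948 in FEAT-3, FEAT-15 and FEAT-20. The groups overlapped, with the highest value in FEAT-15, and the log2 difference was 0.083 (95% interval -0.21 to 0.38; limma, adjusted p = 0.898). A dim Cdk1 probe, above the limit on 2 FEAT arrays alone, gave 0.43 and did not pass (unadjusted p = 0.0167, adjusted p = 0.412). Cdc25b, a phosphatase that activates CDK1, lay at 524 to 612 in control and 534 to 611 in FEAT clones, a difference of 0.026. Its relative Cdc25c read 454, 528 and 467 in the control clones and 520, 546 and 600 in the FEAT clones. FEAT-20 was the highest and ΔccdB-1 the lowest on this probe and on the gene's other bright probe. On that other probe the groups did not overlap, at 410, 483 and 490 against 505, 547 and 594. The log2 differences were 0.19 and 0.25 (intervals -0.098 to 0.48 and -0.050 to 0.55; adjusted p = 0.715 and 0.625).

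Foxm1, the transcription factor that turns on many of these genes in G2, had the largest difference of the 28 and a wide spread. It read 1067, 1560 and 1575 in ΔccdB-1, ΔccdB-2 and ΔccdB-3, and 1326, 1804 and 2204 in FEAT-3, FEAT-15 and FEAT-20. ΔccdB-1 was low, FEAT-20 high, and FEAT-3 lay below the other 2 control clones. The other probe gave the same extremes, from 1048 in ΔccdB-1 to 2026 in FEAT-20. The log2 differences of 0.31 and 0.22 were within the spread of the clones (SE 0.20 for both; adjusted p = 0.687 and 0.789). Gtse1, a microtubule-binding protein of G2 and mitosis that restrains p53, read 1455 in ΔccdB-1 and 2139 to 2386 in the other 5 clones. Its difference was 0.21 on this probe and -0.075 on another bright one, where ΔccdB-1 was again the lowest at 915 (adjusted p = 0.782 and 0.936).

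The median of the 4 tested mitotic kinases was 0.0096. Among the 4 is Nek2, at -0.031, which was above the limit on no array, so this median rests in part on values at background. Plk1, which acts in entry, spindle assembly and cytokinesis, read 2092, 2549 and 2503 in the control clones and 2420, 2647 and 2418 in the FEAT clones. The log2 difference was 0.050 (interval -0.25 to 0.35; limma, adjusted p = 0.944). Aurka, the centrosomal Aurora kinase, had the most negative difference of the 28, -0.17 (interval -0.47 to 0.13; adjusted p = 0.770). It read 3072, 3446 and 3438 in ΔccdB-1, ΔccdB-2 and ΔccdB-3 against 2967, 3260 and 2708 in FEAT-3, FEAT-15 and FEAT-20, so the ranges overlapped through FEAT-15. Aurkb, the kinase of the chromosomal passenger complex, lay at 2311 to 2707 in control and 2463 to 3113 in FEAT clones, a difference of 0.11 (adjusted p = 0.856).

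The 6 tested checkpoint genes and APC/C partners had a median of 0.11. Bub3, which brings BUB1 and BUBR1 to kinetochores, was the 1 member of the 28 whose deposited intensities, by the brightest probe, did not overlap between groups. It read 458, 473 and 482 in the control clones and 606, 599 and 508 in FEAT-3, FEAT-15 and FEAT-20. The log2 difference was 0.27 (interval -0.029 to 0.58), and it did not pass (limma, adjusted p = 0.593). Its other probes were not above background on any array. Mad2l1, which binds and inhibits CDC20, ran from 3841 to 4498 in control and from 3896 to 5245 in FEAT clones, a difference of 0.13, with FEAT-20 the highest on both bright probes. Bub1b, the gene of BUBR1, was highest in ΔccdB-3 on both probes, at 2729 on the brighter, with differences of -0.079 and -0.096.

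Cdc20, the APC/C activator that the checkpoint restrains, had 4 bright probes. The brightest read 6432, 6684 and 6982 in the control clones and 6466, 7584 and 6385 in the FEAT clones. The 4 log2 differences were 0.028, -0.11, -0.0050 and 0.026 (limma, adjusted p of 0.854 and above). The 4 differences thus lay on both sides of 0. These probes read the same 6 clones and are not independent, and the widest of their 95% intervals ran from -0.40 to 0.39. Ttk, the checkpoint kinase MPS1, and Ube2c, an APC/C ubiquitin-conjugating enzyme, were just above background. Ttk read 101 to 126 and Ube2c 113 to 158 over the 6 clones, with differences of 0.15 and 0.10; values this near background understate fold changes.

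The 4 tested centromere and kinetochore genes had a median of 0.046. Cenpa, the histone H3 variant that marks it, differed by 0.0039 (interval -0.32 to 0.33; limma, adjusted p = 0.997). The control clones read 13749, 14127 and 13397, and the FEAT clones 11657, 16142 and 12468. FEAT clones thus lay on either side of the tighter control clones, and a dimmer probe also had FEAT-15 highest and FEAT-3 lowest. That probe, also above the limit on all arrays, gave a difference of opposite sign, -0.097 (limma, adjusted p = 0.916). Incenp, the scaffold of the chromosomal passenger complex, read 1701, 1965 and 1780 in the control clones and 1793, 2398 and 2763 in FEAT-3, FEAT-15 and FEAT-20. FEAT-15 and FEAT-20 exceeded all control clones while FEAT-3 lay among them, and the difference of 0.31 did not pass (interval -0.043 to 0.65; adjusted p = 0.607). Ndc80, the microtubule-binding kinetochore protein, read 1599, 1075 and 1432 in the control clones, with ΔccdB-2 low, and 1404 to 1559 in the FEAT clones, a difference of 0.089. Cenpf, a kinetochore protein of G2 and M, read 122 to 142 over all clones on its brightest probe and differed by -0.027. Its other probe, also above the limit on all arrays, read 99.7, 126 and 140 in the control clones and 113, 112 and 98.9 in the FEAT clones, a difference of -0.26 (limma, adjusted p = 0.714).

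The median of the 6 tested spindle motor and midzone genes was 0.013. Among the 6 is Racgap1, at -0.13, which was above the limit on no array, so this median rests in part on values at background. Prc1, which bundles midzone microtubules, read 11375, 10772 and 12265 in the control clones. It read 12118, 14588 and 12458 in FEAT-3, FEAT-15 and FEAT-20, so that FEAT-3 fell just under ΔccdB-3. The log2 difference was 0.22 (interval -0.072 to 0.52; limma, adjusted p = 0.672). Kif11, the kinesin that pushes spindle poles apart, ran from 942 to 1179 in control and from 942 to 1442 in FEAT clones, a difference of 0.12, with FEAT-20 the highest. Kif23, a midzone kinesin, had the largest SD within groups of the 28 members, with Foxm1 next, from 2436 in FEAT-20 to 4097 in FEAT-3, and its 3 bright probes gave -0.082, -0.11 and 0.047. The dimmer bright probes of Kif23 did not repeat the high reading of FEAT-3, at 1291 against 1237 to 1480 in the other clones on the next brightest. The spindle assembly factor Tpx2 lay at 661 to 860 and Nusap1, a microtubule-bundling protein, at 3171 to 3816, with differences of 0.079 and -0.053.

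Top2a, the topoisomerase that untangles sister chromatids, read 3462, 3366 and 3374 in the control clones and 3086, 3465 and 3088 in the FEAT clones. That brightest probe differed by -0.10 (interval -0.38 to 0.18; limma, adjusted p = 0.861). A weaker Top2a probe, still above the limit everywhere, read 356, 403 and 366 against 262, 287 and 323, with no overlap. Its difference was -0.45, the smallest unadjusted p of the 51 member probes tested at 0.00781, and it did not pass either (adjusted p = 0.324). On no array did the gene's remaining probe exceed the limit. What separates the Top2a probes was not tested.

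By normalized values of the brightest probe, 3 of the 28 tested members, Bub3, Cdc25c and Prc1, had no overlap between groups, all higher in FEAT clones. That is 10.7%, beside 15.2% of all genes tested in either direction and 7.95% higher in FEAT clones, so no result about the members is read from it. By the deposited table, which keeps the mean rather than the whole distribution equal between arrays, the count was 1, Bub3, beside 13.6% of all genes by the same table.

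For the 24 bright members the median SD within a group was 0.15 on the log2 scale, against 0.17 over the 8517 genes above background on all arrays. Relative to each gene's mean over 6 clones, the median of the 24 was -0.085, 0.0015 and -0.020 in ΔccdB-1, ΔccdB-2 and ΔccdB-3. It was -0.045, 0.13 and -0.017 in FEAT-3, FEAT-15 and FEAT-20. FEAT-15 was the highest clone for 6 of the 24 genes and the lowest for 0, while ΔccdB-1 was the highest for 4 and the lowest for 8. FEAT-20 was both, highest for 7 (among them Foxm1, Incenp, Mad2l1, Kif11 and Aurkb) and lowest for 4 (among them Aurka, Kif23 and Top2a). No clone was high or low across all the members. For 11 genes with at least 2 bright probes, the 2 brightest named the same clone as highest in 6, the same as lowest in 6, and gave the same sign of the group difference in 8.

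**Figure D4:**
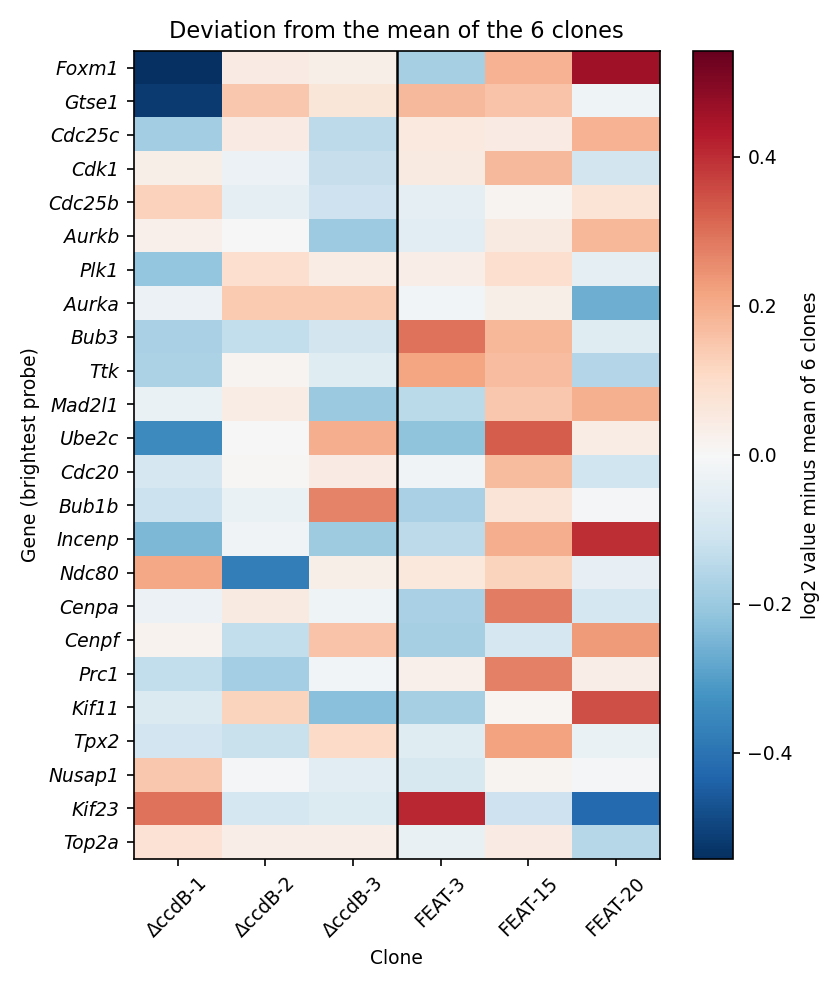
Log2 value of each of the 24 bright members in each clone minus the gene's mean over the 6 clones (colour; red is higher, blue lower), with the 3 control clones to the left of the black line and the 3 FEAT clones to the right. Colours are mixed within each column: FEAT-15 has a median of 0.13 and ΔccdB-1 of -0.085.

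Other genes of the pathway gave the same count. Of 124 tested genes in 7 related lists, 0 rose and 0 fell (limma), where 0.225% of all genes tested were called. Beside 10.1% of all genes tested, 3 of the 124 (2.42%) had an unadjusted p under 0.05. These were Pkmyt1, the membrane-bound kinase that inhibits CDK1, at 0.43 (adjusted p = 0.391), the minus-end kinesin Kifc1, at -0.31 (adjusted p = 0.505), and Rrm2, a ribonucleotide reductase subunit, at 0.45 (adjusted p = 0.292). Pkmyt1 read 263, 267 and 246 in the control clones and 347, 292 and 374 in the FEAT clones. Kifc1 read 2078, 2233 and 2379 against 1765, 1731 and 2025. Rrm2 read 556, 647 and 668 against 837, 894 and 819. All 3 were without overlap, Pkmyt1 and Rrm2 higher and Kifc1 lower in FEAT clones. By normalized values, 10 of the 124 genes were without overlap and higher in FEAT clones, and 3 lower. That is 10.5%, beside 15.2% of all genes tested.

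Medians are given beside 0.0071 for all genes. The median was 0.040 for 16 genes of other G2/M control (with Cks1b, not above background, and Lin54 at -0.18). The 27 other kinetochore and centromere genes had 0.050 (Mis12 at 0.30, Spc24 at 0.28, Zwilch at 0.21). Mis12 was above background on 2 FEAT arrays alone. For 23 other spindle and cytokinesis genes the median was -0.014 (Cep55 at 0.31, Kif15 at 0.24), and for 17 condensin, cohesin and separase genes -0.011 (Sgo1, the protector of centromeric cohesion, at -0.31, Cdca5 at 0.28, Stag1 at 0.25). The 13 genes of the APC/C list had a median of 0.022 (Cdc16 at 0.24, Cdc23 at 0.28, Cdc27 at -0.20). Besides subunits, it holds the activator Fzr1 and the ubiquitin-conjugating enzyme Ube2s. The list of CDK inhibitors and pocket proteins, which also holds E2f4 and E2f5, transcription factors that pocket proteins bind, and the antiproliferative genes Btg1, Btg2 and Gas1, had -0.051 over 11 genes. Its named genes were Cdkn1b, the gene of the inhibitor p27, at -0.37, E2f4 at -0.29 and E2f5 at 0.30. None of these named genes passed, with adjusted p of 0.552 and above.

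G1/S and replication genes, those of the preceding phase, had a median of 0.14 over 17 genes, 14 of them positive, with 0 called. Besides Rrm2 the smallest unadjusted p values were those of cyclin E2, Ccne2, at 0.28 and thymidine kinase, Tk1, at 0.21 (limma, adjusted p = 0.626 and 0.691). Their median by clone was -0.12, -0.091 and 0.0016 in ΔccdB-1, ΔccdB-2 and ΔccdB-3, and -0.0075, 0.12 and 0.079 in FEAT-3, FEAT-15 and FEAT-20. FEAT-15 was thus the highest clone and ΔccdB-1 the lowest by the median of this list and by that of the 24 bright members. The same held for other spindle and cytokinesis genes, at 0.092 and -0.092. For other G2/M control genes FEAT-20 was the highest, at 0.083, and FEAT-15 lay at -0.025.

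**Figure D5:**
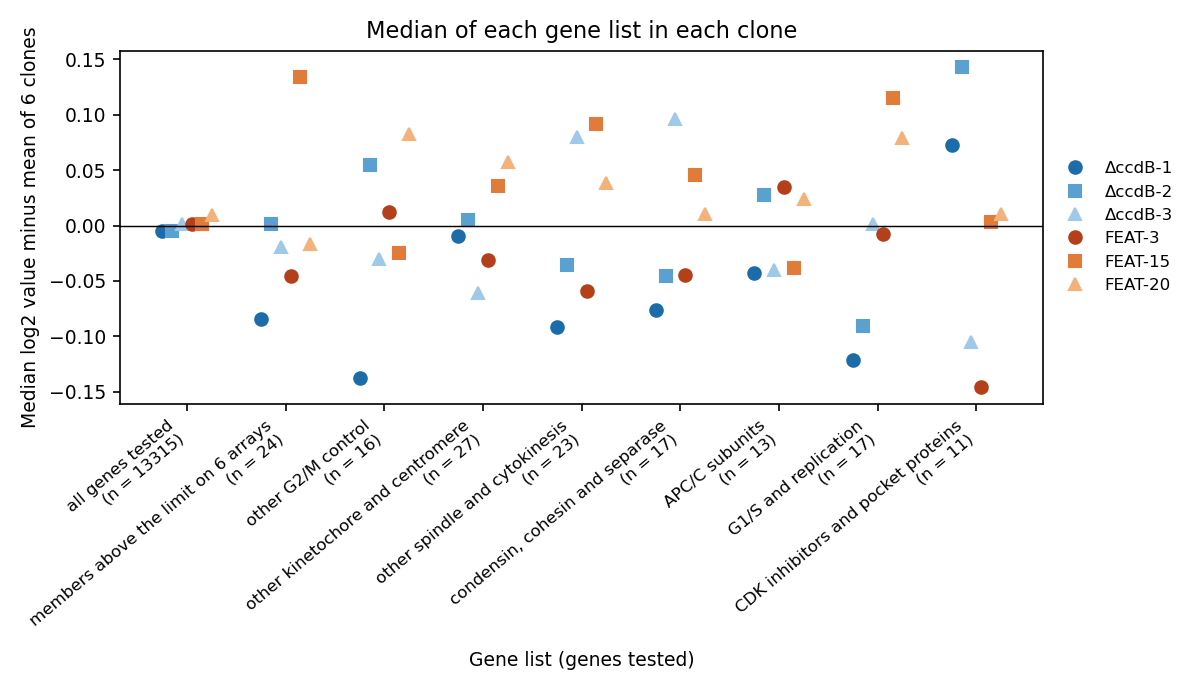
Median, over the genes of each list, of the log2 value minus the gene's mean over 6 clones, with 1 point per clone (blue, 3 ΔccdB clones; red to orange, 3 FEAT clones). Blue and orange points overlap in most lists, and FEAT-15 stands at 0.13 for the 24 bright members.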

How the data were processed

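Per the labels' protocols, RNA was purified with RNeasy Mini, and TotalPrep amplification and Cy3 preceded hybridization. The submitters' processing notes name BeadStudio. The deposited files of each array held linear probe intensities without background subtraction, detection p or bead number. The deposited value table held the same intensities multiplied by 1 factor per array, and printed intensities come from it. The slide of each array, growth conditions and the BeadStudio version are not given in the sources used here.

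For tests, normexp was fitted to the signals (offset 16), followed by quantile normalization and log2 (R 4.3.3, limma 3.58.1). The top 60% of probes by mean, 27169, were tested with lmFit and eBayes, FEAT minus control, with Benjamini-Hochberg adjustment over all of them, and 50 (0.184%) were called at 0.05; 51 member probes were among those tested. Each gene was read from its tested probe of highest mean. Intervals are limma's, at 95%. Folds come from normalized values, so ratios of printed intensities differ, most for dim probes.

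Probes were named through GEO's platform annotation: 34885 had 1 gene, 18 several and 10378 none here. Promoters came from a RefSeq table of GRCm38.p6. The members and lists were chosen with earlier results of these data known. All members are named, with up to 3 genes of each related list by smallest unadjusted p. The steps were tested on simulated data.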

Additional observations from a re-analysis of the deposited data

How the results depend on the processing

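Over 15 alternatives (other background correction, scaling, filter, variance model, probe choice, the deposited table, and each clone left out), limma called 0 members and 0 related genes in every one. An unadjusted p under 0.05 was found for 1 member without background correction, 1 with offset 50 and 2 with the deposited table. There were 2 such members without FEAT-3, 1 without FEAT-20 and none in the other alternatives. The main fit had 0, beside 10.1% of all genes tested. The smallest adjusted p of a member ran from 0.459 to 0.802, and the median of the members from 0.017 to 0.091, positive throughout. The lowest of these medians, without FEAT-15, stood beside 0.012 over all genes. Members without overlap numbered 1 with median scaling and 1 with the deposited table, against 3, beside 13.2% and 13.6% of all genes. They numbered 2 with cyclic loess, 4 without a filter (33 members tested) and 4 with the mean of probes, beside 15.1%, 13.6% and 14.9%. With a clone left out they numbered 4 to 8 of the 27 or 28 tested, beside 23.9% to 28.1% of all genes. Probes called over the array ranged from 0 (without ΔccdB-1, where 1934 had an unadjusted p under 0.05) to 158 (without ΔccdB-2) with a clone left out, with 10 without ΔccdB-3 and 18 without FEAT-3; the cause was not tested. Differences close to 0 changed sign: Cenpa, at -0.056 with median scaling, -0.039 with cyclic loess, -0.050 with the deposited table and -0.047 with the mean of probes, and, with the mean of probes, Cdc20 at -0.014 and Ndc80 at -0.040. With a clone left out, 15 of 28 members changed sign at least 1 time. Their differences ranged from -0.14 to 0.089 for Cenpa, -0.052 to 0.088 for Cdc20, -0.098 to 0.0075 for Nusap1, -0.31 to 0.11 for Kif23 and -0.042 to 0.11 for Plk1. They ranged from -0.0044 to 0.33 for Gtse1, -0.048 to 0.24 for Ube2c, -0.100 to 0.066 for Cks2, -0.078 to 0.22 for Ndc80 and -0.16 to 0.036 for Bub1b. The remaining ranges were -0.026 to 0.094 for Cdc25b, -0.15 to 0.058 for Cenpf, -0.22 to 0.13 for Nek2, -0.011 to 0.15 for Tpx2 and -0.025 to 0.24 for Kif11. No paired analysis was possible because the groups share only 1 clone number, and the numbers only name clones. Signal over background limits the 8 members with no probe above the limit. Of these, Cks2, Nek2 and Racgap1 passed the filter and count among the 28, but their differences (-0.027, -0.031 and -0.13) compare values at background; over the 24 members above the limit on all arrays the median was 0.086.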
